A study of Mus musculus with 2 samples.

Results

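Ribosomal protein genes encode the proteins that, with the ribosomal RNAs, form the large and the small subunit of the cytoplasmic ribosome. The set was chosen by gene name: every Rpl and Rps symbol with a number, plus Rplp0, Rplp1, Rplp2 and Rpsa, without the S6 kinase genes, Rps27l and named pseudogenes, and with at least 1000 unique molecular identifiers (UMIs, distinct captured transcripts) over both libraries. Of 27998 genes in the files, 85 had such a name and 81 also had the UMIs, 49 of the large and 32 of the small subunit. Rps27rt, with 5248 UMIs over all barcodes, was the member nearest to the limit, and Rpl6l, with 681 UMIs, the name nearest below it. The next below, Rpl3l, had 6 UMIs. Rpl39l had 1 UMI and Rpl10l had 0.

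The cells were primary neural stem cells from the subventricular zone, the germinal layer along the lateral ventricles of the brain, of C57BL/6 mice aged 2 months (young) or 15 to 18 months (aged). Tissue of 5 mice was pooled for each age, dissociated, kept in proliferation medium and loaded as 1 library per age, so every value describes cells that had been in culture. No genetic change or drug is named for either group. Age, culture and library all changed at once and cannot be told apart. No test was possible, and all intervals are 95% intervals for counting error only.

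The kept cells numbered 2639 in young and 2527 in aged cells, with 58891207 and 60140272 UMIs and medians of 22951 and 23745 UMIs per cell. The progenitor genes Sox2 (262 young and 288 aged counts per 1000000 UMIs, CPM) and Nes (675 and 638 CPM) were present, whereas Gfap had 26 and 21 UMIs in all. The list of 12 progenitor markers with Sox2 and Nes summed to 9551 and 7724 CPM, with 4 genes higher and 8 lower in the aged library. The list of 18 astrocyte or quiescent stem cell markers with Gfap summed to 1638 and 1968 CPM. Marker lists of microglia, endothelial cells, mural cells, fibroblasts and erythroid cells summed to under 3 CPM in both libraries. Other lists were not as low. The oligodendrocyte precursor list summed to 1770 young and 1501 aged CPM, and the differentiating neuroblast list to 217 and 212 CPM. Oligodendrocyte markers summed to 72.2 and 57.8 CPM, mature neuron markers to 28.3 and 37.1 CPM and ependymal markers to 9.25 and 7.58 CPM. Between the libraries 0 kept cells shared a barcode.

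Each ribosome holds a single copy of nearly every ribosomal protein, so cells make these proteins in step. Vertebrate ribosomal protein messengers are known for a terminal oligopyrimidine (TOP) tract, a C at the first transcribed base followed by further C and T, through which growth signalling by mTOR sets their translation. Dividing progenitors use much of their transcription and translation for ribosomes, and entry of quiescent stem cells into the cell cycle is accompanied by more protein synthesis. These points are background and not results of these data.

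The tract can be read at the annotated starts. RefSeq promoter windows on GRCm38.p6 were found for 61 of the 81 genes, and in 14 of them (23.0%) the annotated start base was a C with C or T at the next 4 bases, against 2.96% of 26964 other genes. The 14 windows below run from 10 bases before the start base, on the strand of the gene, and the capitals mark the tract from the start base on.
Rpl14 (large subunit, chr9:120571507-120571536, plus strand): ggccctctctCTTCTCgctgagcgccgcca
Rpl15 (large, chr14:18270967-18270996, minus): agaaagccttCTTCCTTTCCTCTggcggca
Rpl28 (large, chr7:4792955-4792984, plus): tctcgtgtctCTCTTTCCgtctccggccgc
Rpl35 (large, chr2:39005112-39005141, minus): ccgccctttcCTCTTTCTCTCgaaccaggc
Rpl35a (large, chr16:33056472-33056501, plus): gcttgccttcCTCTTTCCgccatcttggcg
Rpl38 (large, chr11:114668570-114668599, plus): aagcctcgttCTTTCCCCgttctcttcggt
Rplp2 (large, chr7:141447641-141447670, plus): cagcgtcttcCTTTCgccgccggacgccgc
Rps6 (small, chr4:86857348-86857377, minus): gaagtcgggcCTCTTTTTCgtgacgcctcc
Rps10 (small, chr17:27635225-27635254, minus): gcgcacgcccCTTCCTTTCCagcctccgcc
Rps15a (small, chr7:118116128-118116157, minus): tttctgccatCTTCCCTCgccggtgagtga
Rps18 (small, chr17:33955646-33955675, minus): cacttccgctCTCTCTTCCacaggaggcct
Rps21 (small, chr2:180257369-180257398, plus): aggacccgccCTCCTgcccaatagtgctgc
Rps27 (small, chr3:90213629-90213658, minus): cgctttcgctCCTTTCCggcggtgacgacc
Rps27rt (small, chr9:114982720-114982749, minus): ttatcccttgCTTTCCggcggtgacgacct

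The tracts were 5 to 13 bases long, and a start annotated a few bases away from the one in use would hide a tract from this rule. A run of at least 8 C or T lay within 20 bases of the start in 47.5% of the 61 genes and in 18.3% of the others. The letters CTTTCC lay there in 18.0% and 2.26%. Elsewhere in the 300 bases from 250 before the start to 50 after it, CCGGAA or TTCCGG (1 motif read on both strands, the core that ETS factors bind) was found in 55.7% of the set and 16.6% of the others, and GCCATCTT or AAGATGGC (the YY1 type) in 9.84% and 3.17%. TATAA stood 40 to 16 bases before the start in 8.20% and 4.21%. These are matches of letters and not shown to be sites.

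Together the 81 genes took the same part of the transcriptome in both libraries to within 0.101 percentage points. They held 14.9% of kept UMIs in the young library (interval 14.88 to 14.90) and 15.0% in the aged library (14.98 to 15.00), 8767459 and 9014184 UMIs. The median share over kept cells was 14.98% for young and 15.0% for aged cells, with a middle range over cells of 13.5 to 16.4% and 13.4 to 16.6%. The median cell carried 3463 and 3627 ribosomal protein UMIs. Barcodes left out by the cell filter had lower shares, with medians of 12.3% and 12.7%. The share also moved with the mitochondrial share of a cell: among young barcodes with at least 1000 genes its median was 15.4% at 6 to 8% mitochondrial UMIs, 11.9% at 12 to 16% and 8.38% above 16%, and the aged values were 15.2, 12.3 and 9.51%.

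The large subunit genes took 55.2% of ribosomal protein UMIs in the young library (55.14 to 55.21) and 55.6% in the aged library (55.61 to 55.67). This difference of 0.468 percentage points had the same direction in 12 of 12 clusters of cells, by 0.166 to 0.772 points. The ratio of large to small subunit UMIs was 1.23 and 1.25.

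Levels of single genes spanned more than 100-fold. UMIs count captured 3′ ends, so CPM was not divided by length, but capture can differ between transcripts, and an order of levels between genes is a description of these counts. The highest was Rpl13, a large subunit protein, at 4672 CPM in the young and 4664 CPM in the aged library. Rpsa, a small subunit protein also known as the laminin receptor, stood at 4515 and 4303 CPM, and Rps2, at the channel where the messenger enters the small subunit, at 4543 and 4197 CPM. Rpl19 (3246 and 3098 CPM) and Rplp0 (3226 and 3052 CPM) were also among the highest. Rps2 exceeded Rpsa in the young library and lay below it in the aged library, so that pair has no fixed order. At the low end stood Rps27rt (28.5 and 27.4 CPM), Rpl7l1 (152 and 148 CPM), Rpl22l1 (528 and 470 CPM), Rpl36al (546 and 575 CPM), Rpl27 (551 and 571 CPM) and Rps27 (554 and 642 CPM). Rpl36al and Rpl27 changed places between the libraries. The median gene of the set stood at 1789 CPM as a mean of both libraries.

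Of the lateral stalk, through which elongation factors reach the ribosome, Rplp0 stood lower in the aged library, Rplp1 stood at 2407 young and 2539 aged CPM, and Rplp2 at 1288 and 1375 CPM. Rplp0 was lower in 12 of 12 clusters and Rplp1 and Rplp2 were higher in 12 of 12. Rps27a, which is made as a fusion with ubiquitin, was level at 2829 and 2815 CPM. Fau, a ubiquitin-like protein joined to a small subunit protein and outside the name rule, stood at 1171 and 1223 CPM.

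The first comparison asked which of the 81 genes differed between the aged and the young library. Of them 44 were higher and 37 lower in the aged library, with a median log2 ratio of 0.02. Of the 8331 genes that reached 10 CPM in 1 or both libraries, 4617 were higher and 3714 lower, and the median was 0.02 as well. Only 3 of the 81 genes (3.70%) were at least 1.2-fold apart, all higher in the aged library. Of those 8331 genes 12.2% were at least 1.2-fold apart either way and 6.97% were at least 1.2-fold higher. Of the 3425 genes with at least 50 CPM 8.12% passed either way and 4.23% were at least 1.2-fold higher. Of the members 80 reached 50 CPM. As all 3 calls were upward, the nearest background is 4.23%, and 3.70% is close to it. No test of these differences was made. At 1.1-fold the members counted 14 higher and 1 lower, where 35.0% of the 8331 and 28.9% of the 3425 genes passed. At 1.5-fold and 2-fold 0 members passed, where 1.87% and 0.432% of the 8331 genes and 1.11% and 0.292% of the 3425 genes did. Counting error was small at these UMI counts, so even ratios close to 1 could have intervals clear of it. The interval of the ratio lay above 1 for 41 of the 81 genes and below 1 for 33. That count was not made over all genes and does not measure how many members differ with age.

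Rps29, a zinc-binding protein of the small subunit, stood at 1258 CPM in the young and 1698 CPM in the aged library, a ratio of 1.35 (1.34 to 1.36). Rpl38, a large subunit protein whose loss in mice alters the pattern of the axial skeleton, stood at 704 and 897 CPM (1.27, 1.26 to 1.29), and Rpl37, a zinc-binding protein of the large subunit, at 938 and 1141 CPM (1.22, 1.204 to 1.23). Each was higher in the aged library in 12 of 12 clusters. Next came Rps26 (885 and 1060 CPM, ratio 1.198), Rpl36 (737 and 874 CPM) and Rpl39 (876 and 1031 CPM), also in 12 of 12 clusters. Rps26 lies at the exit channel of the messenger and Rpl39 lines the tunnel of the nascent chain.

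At the other end was Rpl22l1, the paralogue of the RNA-binding protein Rpl22, at 528 CPM in the young and 470 CPM in the aged library, a ratio of 0.890 (0.876 to 0.904), lower in 11 of 12 clusters. Rps3 (2483 and 2273 CPM), Rps4x (2643 and 2436 CPM), Rps2 and Rps9 (2757 and 2553 CPM) were next among the genes described, with ratios of 0.915 to 0.926, and were lower in 12 of 12 clusters. Rps2, Rps3 and Rps9 surround the channel where the messenger enters the small subunit. In all, 27 genes were higher and 12 lower in the aged library in every cluster, 39 of 81 (48.1%). The same was true of 9.31% of the genes with at least 10 CPM, and of 33.8% of 198 other genes with at least 500 CPM, a level reached by 79 members. The clusters share their libraries and are not replicates.

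**Figure D1:**
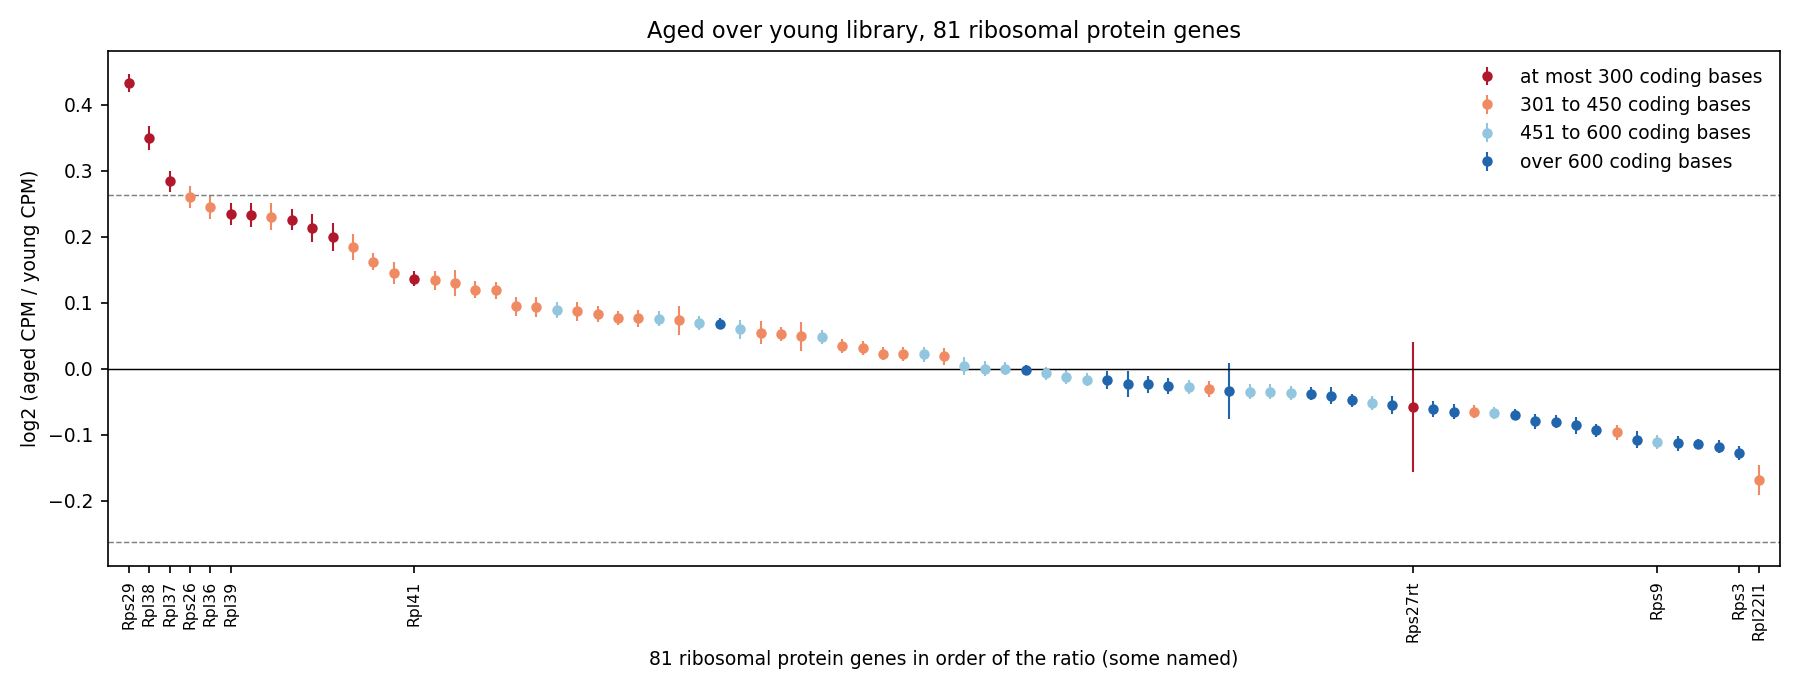
Log2 ratio of aged to young CPM for each of the 81 ribosomal protein genes, in order of the ratio; points are coloured by coding length, bars are 95% counting intervals and dashed lines mark 1.2-fold. The dark red genes of at most 300 coding bases gather on the left, with Rps29, Rpl38 and Rpl37 above the upper line, and no gene lies below the lower one.

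The order of the ratios followed the length of the coding sequence. Coding length was taken without the stop codon from a chosen transcript of each gene in GENCODE vM21. Protein-coding transcripts were ranked first, then the annotated principal isoform, then the best support level, and length came last, with the longest taken. Of the 10 genes with at most 300 coding bases, 9 were higher in the aged library, with a median log2 ratio of 0.23, and the exception was Rps27rt. Of the 29 genes over 300 and up to 450 bases, 25 were higher (median 0.08). Of the 19 over 450 and up to 600 bases, 9 were higher (−0.01). Of the 23 genes over 600 bases, 22 were lower (−0.06). Across the 81 genes Pearson's r between the log2 ratio and log2 coding length was −0.71 and Spearman's rho −0.76, a description over genes that share the same libraries, and without the pair of genes farthest from the median length r was −0.74. Against mean CPM rho was −0.52, and longer members had higher CPM (rho 0.56), so level and length are linked in the set. Length was compared after the ratios had been seen.

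Both subunits had this order. The 5 large subunit genes of at most 300 bases were all higher in the aged library (median 0.23), as were 4 of the 5 small subunit genes (0.21). The 15 large subunit genes over 600 bases were all lower (−0.04), as were 7 of the 8 small subunit genes (−0.10). In 12 of 12 clusters the short group had a higher median than the long group, by 0.25 to 0.32 on the log2 scale. The remaining short genes were Rpl39, Rps21 (790 and 929 CPM), Rpl37a (954 and 1116 CPM), Rps27 (554 and 642 CPM), Rps28 (568 and 652 CPM) and Rpl41 (1996 and 2195 CPM).

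The coding sequences of Rpl38, a gene with a high ratio, and of the shortest member show how small these genes are (GENCODE vM21 transcripts, GRCm38, stop codon included, no base marked). Rpl38 has 213 coding bases in a gene of 4 exons, and Rpl41, a short basic peptide, has 78 and 4 exons.
Rpl38 (chr11:114668524-114672331, plus strand): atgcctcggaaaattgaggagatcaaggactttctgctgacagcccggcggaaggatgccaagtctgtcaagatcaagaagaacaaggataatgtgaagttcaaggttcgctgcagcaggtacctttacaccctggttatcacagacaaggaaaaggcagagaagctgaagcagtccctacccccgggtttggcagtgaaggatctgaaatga
Rpl41 (chr10:128548114-128549305, minus strand): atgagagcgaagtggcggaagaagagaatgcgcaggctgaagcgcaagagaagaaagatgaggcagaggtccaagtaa

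Outside the set the ratio did not follow coding length in the same way. Of 148 other protein-coding genes with at least 50 CPM and at most 300 coding bases, 83 were higher in the aged library (median log2 ratio 0.02). For over 300 to 450 bases it was 127 of 296 (−0.02), for over 450 to 600 bases 141 of 354 (−0.03), and for over 600 to 2000 bases 813 of 1721 (−0.01). Genes over 2000 bases had the highest share, 555 of 798 (0.06). The short genes differed by transcript length, a split chosen after seeing the data. There were 34 other protein-coding genes with at least 50 CPM, at most 300 coding bases and a chosen transcript of at most 600 bases. Of these 34, 29 were higher in the aged library, with a median log2 ratio of 0.18. At least 1.2-fold higher were 7 (20.6%), against 4.23% of all genes with at least 50 CPM. Among them were the metallothionein gene Mt3 (154 and 246 CPM), the ATP synthase subunit genes Atp5k (223 and 304 CPM) and Atp5e (373 and 472 CPM), and the respiratory complex I gene Ndufa3 (91.8 and 122 CPM), picked after their values were seen. Rps27l is also among the 34 and was 0.970 times its young level. Of 114 genes with as short a coding sequence but a longer transcript, 54 were higher (−0.01). Within the set the correlation of the ratio with the length of the chosen transcript was weaker than with coding length (Pearson's r −0.40 and Spearman's rho −0.42). The chosen transcript may not be the one that the cells use. For some genes it is far longer than the coding sequence, as for Cox17 with 189 coding and 3690 transcript bases. Both the split at 600 bases and the correlations with transcript length rest on these lengths. They cannot show which length the ratio follows more closely. The part of transcript length in the result was not tested. The protocol selects complementary DNA by size in both libraries. Over all cells the depth and the mitochondrial share of the libraries were close, at 8.04% and 8.02% mitochondrial UMIs.

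**Figure D2:**
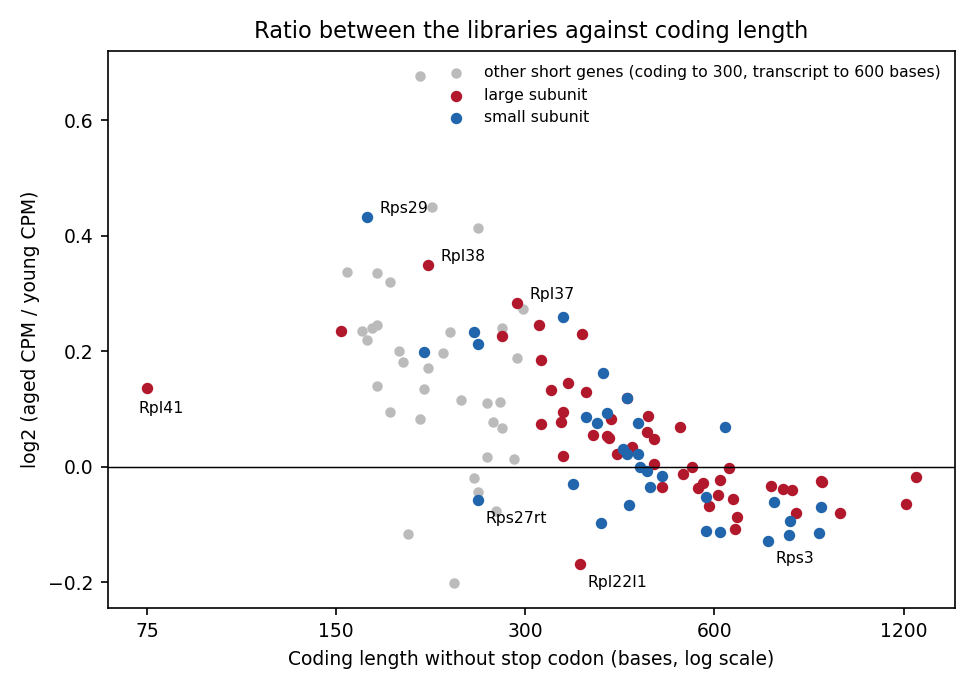
Log2 ratio of aged to young CPM against coding length for the 81 genes, by subunit, and for 34 other short genes in grey. Points of both subunits run from positive values at short lengths to values below 0 over 600 bases, with Rps27rt and Rpl22l1 off that course.

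The start tract did not divide the set in this way. Of the 14 genes with a tract at the start base, 9 were higher in the aged library (median log2 ratio 0.08, from −0.09 for Rpl14 to 0.35 for Rpl38). Of the 47 with a window and no tract there, 22 were higher (−0.01). The TOP genes other than ribosomal proteins, such as elongation factors, stood mostly lower, with 17 of 23 lower in the aged library. Of the 8331 genes 3714 were lower. The median of these TOP genes was −0.05, and 0 of 23 were at least 1.2-fold apart. Rack1, a scaffold protein of the small subunit, was at 1940 and 1727 CPM, the translationally controlled protein gene Tpt1 at 5214 and 4777 CPM, and the nucleolar gene Npm1 at 1653 and 1521 CPM. The elongation factor genes Eef1a1 (5570 and 5261 CPM) and Eef2 (871 and 845 CPM) were lower by less.

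Lists for building and running ribosomes had medians slightly below 0. Over the 8331 genes the median was 0.02, with 3714 lower and 4617 higher in the aged library. Of 37 ribosome biogenesis genes 27 were lower in the aged library (median −0.03, 0 at least 1.2-fold apart). The fibrillarin gene Fbl stood at 235.2 and 218 CPM, the nucleolin gene Ncl at 1280 and 1277 CPM, Rrp9 at 40.7 and 35.5 CPM and Ddx18 at 73.9 and 83.8 CPM. Of 23 translation initiation genes 16 were lower (−0.02, 0 called), with Eif3i at 364 and 320 CPM and Eif3c at 315 and 364 CPM. Of 13 genes for RNA polymerase I and its factors 10 were lower (−0.04). There Polr1e (24.7 and 20.1 CPM) and Polr1d (394 and 322 CPM) were at least 1.2-fold lower and Taf1d (60.7 and 76.2 CPM) at least 1.2-fold higher, so 3 of 13 passed 1.2-fold either way against 12.2% of the 8331 genes. Of 13 genes for the escort and assembly of ribosomal proteins 10 were lower (−0.04, 0 called). Mitochondrial ribosomal protein genes, whose ribosomes are separate, were lower in 48 of 76 (−0.02, 0 called).

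Genes of growth control leaned the other way, with 12 of 14 higher in the aged library, against 4617 of the 8331 genes. Their median was 0.07, and 1 was at least 1.2-fold apart. That was Tsc1, which restrains mTOR, at 12.8 and 15.9 CPM. Eif4ebp1, an inhibitor of cap-dependent initiation, stood at 147 and 172 CPM, and Mtor at 30.4 and 34.2 CPM. Myc, a transcription factor that drives ribosome genes, stood at 33.8 and 30.4 CPM.

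The second comparison was between cell states. The kept cells were split into 12 clusters without the use of any ribosomal protein gene, so these genes did not set the clusters. Names rest on fixed marker lists: cluster 1 was S phase-like (16 of 22 markers at least 1.5-fold raised), cluster 3 S phase-like with all 10 replication histone genes raised, clusters 4 and 11 G2/M-like (24 and 23 of 24), cluster 10 astrocyte or quiescent stem cell-like (11 of 18) and cluster 12 integrated stress response-like (15 of 15). Cluster 6 raised 10 of 10 histone and 17 of 24 G2/M markers. Cluster 7 raised 17 of 22 S phase and 10 of 10 histone markers, as many as clusters named here, but was led by Tead2 and Anxa3 with 0 S phase markers among its 10 leading genes, and goes by those genes. Clusters 2, 5, 8 and 9 have no name here either. Cluster 8 stands apart, as its median cell had 2465 UMIs (young) and 2400 UMIs (aged), 2.96% and 2.73% mitochondrial UMIs, and Rpgrip1, AY036118 and Gm42418 as leading genes.

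The ribosomal protein share ranged over 3.02 percentage points between clusters in the young and 3.26 points in the aged library, more than the 0.101 points between the libraries. The size of this range depends on the cells kept: its mean over both libraries, 3.14 points, was 9.78 in cells with at least 10000 UMIs and 6.66 after thinning to 5000 UMIs, where cluster 8 had few cells left. It was lowest in both libraries in the G2/M-like cluster 4, at 13.8% of UMIs in young and 14.0% in aged cells. Cluster 6 (14.3% and 14.4%) was next in the young library and cluster 11 (14.6% and 14.1%) in the aged library. Cluster 10, like astrocytes or quiescent stem cells, was also low, at 14.4% and 14.4% (14.34 to 14.41 and 14.41 to 14.48). The S phase-like clusters 1 (14.9% and 15.2%) and 3 (15.3% and 15.0%) lay in the middle, as did cluster 7 (14.9% and 14.8%). The stress response-like cluster 12 had 16.6% and 16.9%, cluster 9, led by Tead2 and Anxa3, 16.003% and 16.1%, and the shallow cluster 8 had 16.8% and 17.2%.

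By the median cell, cluster 12 was highest, at 16.9% and 16.7%, and cluster 8 stood at 15.1% and 15.3%, so cluster 8 is at the top only when UMIs are summed, which weights its deeper cells. Without cluster 8 the highest and lowest clusters differed by 2.81 points in young and 2.91 points in aged cells. The order of clusters was nearly the same in both libraries (Spearman's rho 0.93 over 12 clusters, a description). The share was higher in the aged library in 9 of 12 clusters, by at most 0.790 points in cluster 5, which is led by Mxd4, and was lower by 0.494 points in cluster 11. Cluster 12 held 59 young and 134 aged cells, so it weighed more in the aged library.

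In the G2/M-like clusters 4 and 11 a low share did not mean few ribosomal protein transcripts. The median cell of cluster 4 carried 4184 of their UMIs (young) and 4519 (aged), above the medians over all kept cells, because these cells were deep (30225 and 33062 UMIs). Cluster 11, also G2/M-like, had 4888 and 4992. Cluster 10 had 3366 and 3615, slightly below the medians of 3463 and 3627 over all kept cells. UMI depth per cell moves with these counts, and its part was not tested.

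**Figure D3:**
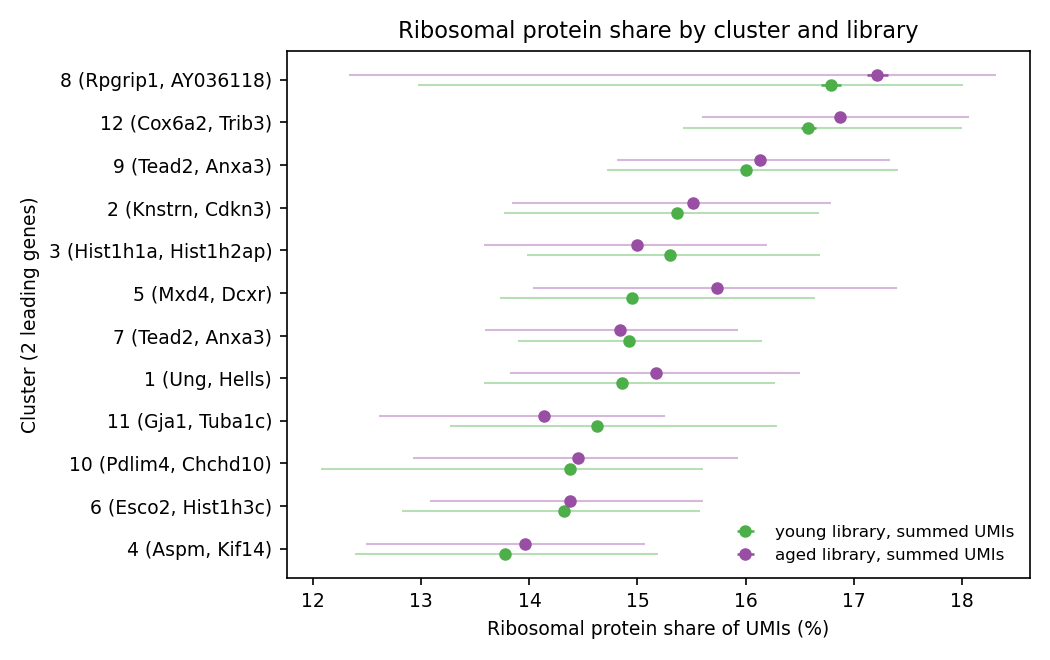
Ribosomal protein share of UMIs (%) in 12 clusters in order of the young value, from summed UMIs (points, with 95% counting intervals mostly smaller than the points); pale lines span the cells from the lower to the upper quartile. Cluster 4 is lowest and clusters 8, 12 and 9 are highest in both libraries.

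In some clusters nearly all genes of the set lay on the same side of the other cells. Direction alone was not counted over all genes, so these counts have no background beside them. In cluster 4, 80 of 81 stood below their level in the other cells in both libraries, with a median log2 difference of −0.13 in each, and Rps27rt was the exception in the young library. In cluster 6, 78 of 81 were lower in both. In cluster 9, 78 were higher in both, with medians of 0.11 in each. In cluster 2, 73 were higher in both and 2 lower. Clusters 10 and 11 leaned lower, with 59 lower in both in each, and 7 and 1 higher. Other clusters were mixed: 25 were higher and 34 lower in both libraries in cluster 7, 35 and 10 in cluster 1, 42 and 8 in cluster 3, and 45 and 7 in cluster 5, and the remaining genes differed in direction between the libraries. In these clusters 0 of 81 genes reached 1.2-fold in both libraries, where 12.3%, 12.6% and 6.16% of the 8331 genes did so in that direction. The same held in clusters 1, 2, 3, 5, 7, 10 and 11, where 9.09, 5.46, 9.22, 13.8, 10.2, 16.1 and 11.0% of the 8331 genes were that much higher and 7.49, 14.3, 10.2, 18.8, 12.7, 21.8 and 15.5% lower. In the opposite direction the background of clusters 4, 6 and 9 was 10.4, 10.6 and 17.4%. Rpl13, for example, stood in cluster 4 at 4367 CPM against 4711 CPM in the other young cells, and at 4307 against 4722 CPM in the aged.

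Calls of at least 1.2-fold in both libraries came from 2 clusters. In the stress response-like cluster 12, 7 of 81 genes were higher (Rps21, Rpl13a, Rpl18, Rpl19, Rpl37, Rpl36 and Rps14), 8.64% against 12.4% of the 8331 genes, and 0 were lower (19.5%). Rpl37 stood there at 1216 against 932 CPM in young cells and 1455 against 1125 CPM in aged cells. In the shallow cluster 8, 29 genes were higher, 35.8% against 8.67% of all genes, and only Rps9 was lower, where 16.7% of all genes were. Rps27 (792 against 551 CPM and 869 against 639 CPM) and Rpl39 (1168 against 873 CPM and 1464 against 1027 CPM) were among the higher ones. These calls are those of cells with few UMIs and few mitochondrial UMIs, and the part of either was not tested.

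Taking each gene as a share of ribosomal protein UMIs removes the common level and leaves which members differ from the others. By this measure 4 of 81 genes (4.94%) were at least 1.2-fold low in cluster 8 in both libraries, and 1 of 81 (1.23%) in cluster 12. Rps9 made up 13.1 young and 11.8 aged per 1000 ribosomal protein UMIs in cluster 8, 1.41-fold and 1.45-fold less than in the other cells. Rpl29 (7.88 and 7.33 per 1000), Rps2 (23.4 and 21.9) and Rpl31 (3.65 and 4.02) were the other low genes there. In cluster 12 Rpl7l1, a paralogue of Rpl7 found in the nucleolus, was 1.33-fold low in both libraries, at 0.771 and 0.751 per 1000. Rpl6 was also low in cluster 12, at 7.45 and 8.23 per 1000, 1.35-fold less than in the other cells of the young library and 1.197-fold less in the aged, so it was not called.

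Over all clusters the widest ranges, as the fold between the highest and the lowest cluster, were those of Rps9 (1.51), Rpl7l1 (1.51), Rpl6 (1.40), Rpl29 (1.39), Rps2 (1.37), Rps27 (1.30), Rps27rt (1.29) and Rpl11 (1.28). Without cluster 8 those of Rpl7l1 (1.51), Rpl6 (1.33) and Rps27rt (1.29) stayed wide, while Rps9 came to 1.204, Rps2 to 1.13, Rps27 to 1.12, Rpl11 to 1.12 and Rpl29 to 1.11. Rpl13 had the narrowest range of all 81. Rps27rt had 133 young UMIs in cluster 5, its highest, so its range rests on few counts and its order differed between the libraries.

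**Figure D4:**
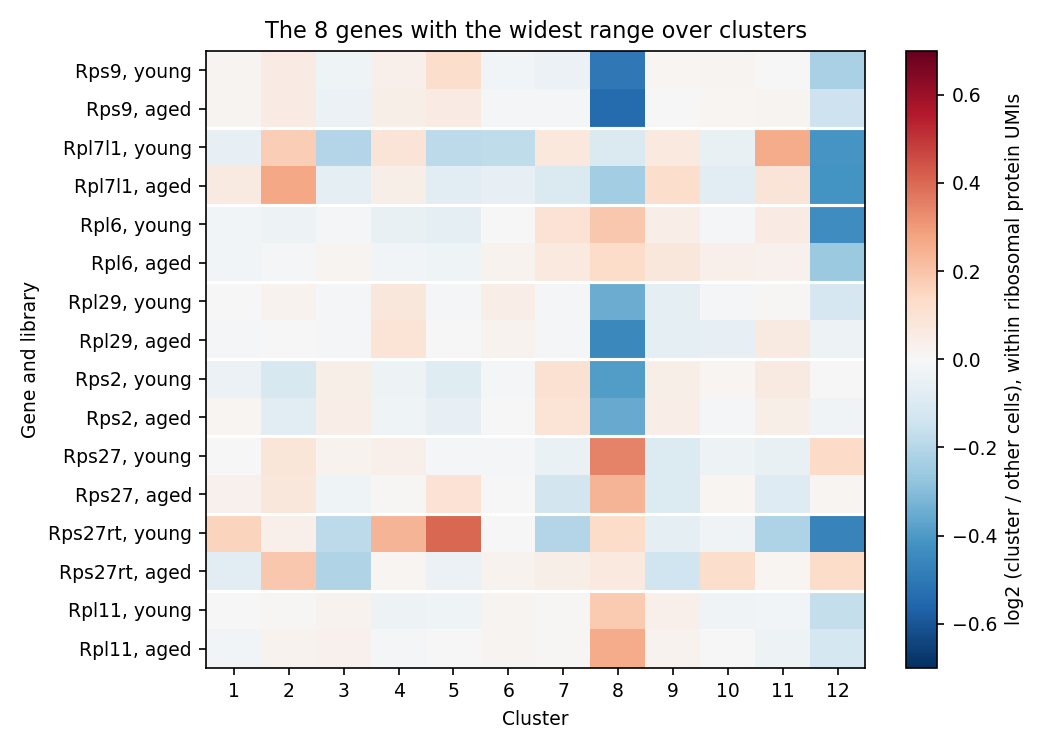
Log2 fold of each gene's share of ribosomal protein UMIs in a cluster over its share in the other cells of the same library, for the 8 genes with the widest range. Cluster 8 stands out for Rps9, Rpl29 and Rps2 and cluster 12 for Rpl7l1 in both libraries, while Rps27rt differs in sign between the libraries in several clusters.

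Paralogue pairs showed which copy these cells used. Rpl22l1 made up 38.8% of the sum of Rpl22 and Rpl22l1 UMIs in the young library (38.5 to 39.2) and 35.2% in the aged library (34.9 to 35.6), with Rpl22 itself at 831 and 863 CPM. The share was lower in the aged library in 11 of 12 clusters, and cluster 12 was the exception at 33.4% young and 34.5% aged. After thinning each cell to 5000 UMIs, 91.6% of young and 88.9% of aged cells had an Rpl22l1 UMI (97.2% and 97.3% at full depth). Rpl36al made up 45.3% and 43.4% of its pair with Rpl36a (660 and 750 CPM), and was itself higher in the aged library in 12 of 12 clusters. Rpl7l1 made up 7.06% and 7.27% of its pair with Rpl7 (1999 and 1892 CPM), lowest in cluster 12 at 5.17% and 5.53%. The coding sequences of these pairs were 70.2%, 87.9% and 55.2% identical over their aligned bases.

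The tissue-restricted copies were silent in these counts. Rpl3l, a striated muscle gene, and Rpl39l and Rpl10l, testis genes, had 0 UMIs in kept cells, where Rpl3 stood at 2327 and 2225 CPM, Rpl39 as above and Rpl10 at 1591 and 1531 CPM. A count of 0 allows up to 3 UMIs in each library.

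Rps27 has 2 further copies with different histories. Rps27rt is a gene of 1 exon on chromosome 9 whose 255 coding bases, stop codon included, match those of Rps27 at every base, a gene of 4 exons on chromosome 3, so reads from the shared bases cannot be told apart, and its counts are uncertain. Rps27l, outside the name rule, differs from Rps27 at 61 of 255 bases (76.1% identity), marked in capitals in its sequence below.
Rps27 (chr3:90212522-90213651, minus strand): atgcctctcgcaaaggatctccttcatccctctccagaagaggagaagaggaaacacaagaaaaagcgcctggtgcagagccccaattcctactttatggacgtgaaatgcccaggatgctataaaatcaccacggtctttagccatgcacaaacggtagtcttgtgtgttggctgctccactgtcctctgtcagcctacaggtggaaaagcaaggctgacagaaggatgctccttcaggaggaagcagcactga
Rps27l (chr9:66946086-66949516, plus strand): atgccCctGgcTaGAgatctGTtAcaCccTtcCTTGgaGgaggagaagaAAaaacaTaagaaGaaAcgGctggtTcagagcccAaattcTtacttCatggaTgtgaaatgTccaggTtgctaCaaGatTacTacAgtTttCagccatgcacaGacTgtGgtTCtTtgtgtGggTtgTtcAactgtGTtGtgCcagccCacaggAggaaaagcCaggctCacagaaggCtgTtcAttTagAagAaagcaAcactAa

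Rps27l, a p53 target in many cells, was the more abundant of its pair, at 861 young and 835 aged CPM against 554 and 642 CPM of Rps27. It made up 60.9% of the pair in the young library (60.5 to 61.2) and 56.5% in the aged library (56.2 to 56.9), and was highest in the Mxd4-led cluster 5, at 65.0% and 59.1%. Other p53 targets also stood lower in the aged library, in 12 of 13 genes compared, with a median log2 ratio of −0.21. Of the 8331 genes 3714 were lower. A link between Rps27l and these targets was not tested. Rps27rt made up 4.89% and 4.09% of its own pair with Rps27, and after thinning 12.9% of young and 13.3% of aged cells had a UMI of it (45.0% and 45.8% at full depth).

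The 81 genes lay on 19 chromosomes, most often chromosome 7 with 14 of them. Rps29 and Rpl36al, 23545 bases apart on chromosome 12, had log2 ratios of 0.43 and 0.07. Named pseudogenes of ribosomal proteins, which share sequence with the members, numbered 16 in the files and held 0.0839% as many UMIs as the 81 genes.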

How the data were processed

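Raw UMI counts per gene and barcode were deposited as 1 matrix per library. Per the submitters' processing notes the authors used Cell Ranger 3.0.2 and mm10, and per the labels' protocols the 10x 3′ version 3 chemistry with size selection of complementary DNA. The gene annotation and the treatment of reads matching several genes are not given in the sources used here, and such reads make near-identical copies uncertain. The other deposited columns are barcodes and gene names; 27645 of 27998 identifiers matched a reference symbol.

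Cells with at least 1000 genes and at most 10% mitochondrial UMIs were kept. Scrublet (scanpy 1.11.5) called 11 young and 10 aged doublets, too few to count as working removal, so clusters of deep cells may hold doublets. UMIs were summed per library, or per cluster and library, and given as CPM. Ratios have exact conditional binomial intervals, tested on simulated counts that held counting error only. Shares have exact Clopper-Pearson intervals, which were not tested by simulation. Clusters used 2000 variable genes, 30 components, 20 neighbours and leidenalg 0.10.2 at resolution 1. Python 3.11.15, numpy 2.4.6 and scipy 1.17.1 were used. With 1 library per age no p-value was computed, and called means at least 1.2-fold.

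Coordinates and coding sequences come from GENCODE vM21 and promoters from RefSeq, both on GRCm38. Rps19bp1, a binding protein that fits the name pattern, was left out; protein sequences and Rps4l were not analysed here. Genes named are the 6 highest and 6 lowest by level and by ratio, the 8 with the widest range over clusters, paralogue pairs, stalk genes, genes at the UMI limit and up to 3 per list; short genes, tract genes, called genes, close neighbours and the Rps27 copies were added after their values were seen. The members and lists were chosen with earlier results of these data known. Some results are not reported here.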

Additional observations from a re-analysis of the deposited data

How the results depend on the processing

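With 1 library per age there was no replicate to leave out, and the settings below show how values move with processing, not whether they would recur. No paired analysis was possible because each age has 1 library and the labels give no replicate numbers. The 12 genes named for their ratio kept their direction in 132 of 132 recomputations, and the difference in share kept its sign in 9 of 9 and that of the large subunit in 8 of 8. The difference in share between the libraries (0.101 points) was 0.183 with no cell filter. It was 0.0807 with each cluster given the same weight in both libraries. The large subunit difference (0.468 points) was 0.530 with cells up to 20% mitochondrial UMIs, 0.525 with no filter and 0.361 with each cell thinned to 5000 UMIs. The gap between short and long genes (0.29) was 0.31 after thinning and 0.13 when split at the median coding length of 453 bases, a split added after seeing the data. Called genes (3) numbered 15 at 1.1-fold, 0 at 1.5-fold and 0 at 2-fold. The Rpl22l1 difference (−3.60 points) was −4.08 and the median of the TOP list (−0.05) −0.0687 with cells up to 20% mitochondrial UMIs.

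Results by cluster moved most. The range of shares between clusters, as a mean of both libraries, was 3.14 points. It was 4.32 with cells up to 20% mitochondrial UMIs, 9.78 in cells with at least 10000 UMIs, 6.66 after thinning, 3.23 with mitochondrial genes out of the denominator, 2.57 at resolution 0.5 and 2.86 without the shallow cluster, a setting added after seeing the data. After the depth limit the shallow cluster had 3 cells in each library, and after thinning 20 and 21. The calls of a gene in a cluster (37) numbered 82, 75, 65, 19, 22 and 8 in the same order. They numbered 5 within ribosomal protein UMIs, 150 at 1.1-fold, 0 at 1.5-fold and 0 at 2-fold. Under these other settings calls were counted over the members only. Whether they exceed the share of all genes is therefore not known. Depth limits Rps27rt most, with 19 to 217 UMIs per cluster and library.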
